A study of Mus musculus with 12 samples.

Results

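Genes along mouse chromosome 6 were followed in 4 lines of epiblast stem cells, which are derived from or resemble the postimplantation epiblast and can form all tissues of the embryo. Each gene was represented by its brightest probe set among those paired with a single symbol, and it was chosen by its level: the mean log2 signal over the 12 arrays had to reach the median of the non-control probe sets (5.97, a signal of 62.6). The reference gene table placed 2863 genes on chromosome 6, of which 992 had such a probe set and 542 reached that level. After 12 genes were left out by name (Col1a2, Sgce, Mest, Hoxa5, Hoxa9, Hoxa10, Hoxa11, Gadd45a, Kdm3a, Bhlhe40, Nanog and Rps4l), 530 genes remained of the 11105 tested on all chromosomes. Parp12 (62.6), Tmtc1 (63.1) and Pianp (63.4) lay just inside the level limit, and Klf14 (60.6), Cbx3 (60.6) and Mansc1 (59.1) just outside it. The other 450 genes of chromosome 6 with a probe set lay below it and are not described.

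The study set haploid against diploid cells. Its arrays covered a pair of diploid lines (diploid EpiSC-1 and diploid EpiSC-2) and a pair of haploid ones (haploid EpiSC-1 and haploid EpiSC-2), with 3 biological replicates each, and bFGF and Activin A were added to N2B27 medium for all of them. The diploid lines were labelled B6D2F1 and the haploid lines 129Sv, so ploidy and strain cannot be told apart. The labels do not state whether a line is 1 clone, whether replicates were separate cultures, or what share of the cells labelled haploid still held 1 chromosome set at harvest, and p-values measure the spread between these arrays.

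A haploid cell carries 1 copy of each chromosome and a diploid cell 2, but in cultured pluripotent cells single chromosomes can be gained or lost, and the RNA of genes along an affected chromosome is known to follow the copy number on average. Mouse chromosome 6 carries genes of many kinds, among them growth-factor signalling genes, the p27 inhibitor of the cell cycle, chromatin regulators, a cluster next to Nanog that is active in pluripotent cells, and large families of lymphocyte receptors and of taste and vomeronasal receptors. No copy number was measured here.

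Some neighbours on the chromosome start from the same stretch of DNA in opposite directions. Among the 530 genes, 16 such pairs had RefSeq promoter windows (250 bases before to 50 bases after the start, build GRCm38.p6) that shared at least 50 bases. Both genes of each pair were measured separately on the arrays. The 4 pairs with the smallest p-values between the haploid lines are shown, a choice that favours pairs in which both genes differ between these lines. The sequence is the window of the gene named first, 5′ to 3′ on its own strand (minus for all 4), with the bases shared with the window of the gene named second in capitals. The windows lie at chr6:48841325-48841624 (Tmem176b and Tmem176a, 219 shared bases), chr6:11907401-11907700 (Ndufa4 and Phf14, 122), chr6:146577786-146578085 (Ints13 and Fgfr1op2, 175) and chr6:86849391-86849690 (2610306M01Rik and Aak1, 164).
Tmem176b/Tmem176a: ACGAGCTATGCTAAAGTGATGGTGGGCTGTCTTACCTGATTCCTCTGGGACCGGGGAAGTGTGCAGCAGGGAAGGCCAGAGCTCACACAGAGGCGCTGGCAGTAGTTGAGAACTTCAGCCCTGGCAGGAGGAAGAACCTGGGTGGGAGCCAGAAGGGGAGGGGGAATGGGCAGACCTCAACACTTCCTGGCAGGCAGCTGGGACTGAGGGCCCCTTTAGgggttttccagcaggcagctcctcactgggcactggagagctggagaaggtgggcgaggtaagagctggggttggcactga
Ndufa4/Phf14: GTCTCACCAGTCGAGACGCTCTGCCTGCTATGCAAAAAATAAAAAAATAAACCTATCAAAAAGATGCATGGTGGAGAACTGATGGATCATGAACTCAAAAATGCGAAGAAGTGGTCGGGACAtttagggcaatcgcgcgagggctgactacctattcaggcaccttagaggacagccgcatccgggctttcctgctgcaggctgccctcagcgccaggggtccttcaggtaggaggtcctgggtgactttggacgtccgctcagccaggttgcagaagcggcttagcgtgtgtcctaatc
Ints13/Fgfr1op2: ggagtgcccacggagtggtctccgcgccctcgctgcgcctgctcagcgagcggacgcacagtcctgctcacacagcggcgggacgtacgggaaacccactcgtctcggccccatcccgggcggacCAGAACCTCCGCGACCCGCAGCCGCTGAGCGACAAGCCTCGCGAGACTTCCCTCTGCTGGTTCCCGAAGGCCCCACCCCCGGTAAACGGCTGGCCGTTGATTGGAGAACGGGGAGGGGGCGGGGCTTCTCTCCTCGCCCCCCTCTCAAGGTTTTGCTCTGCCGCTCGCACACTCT
2610306M01Rik/Aak1: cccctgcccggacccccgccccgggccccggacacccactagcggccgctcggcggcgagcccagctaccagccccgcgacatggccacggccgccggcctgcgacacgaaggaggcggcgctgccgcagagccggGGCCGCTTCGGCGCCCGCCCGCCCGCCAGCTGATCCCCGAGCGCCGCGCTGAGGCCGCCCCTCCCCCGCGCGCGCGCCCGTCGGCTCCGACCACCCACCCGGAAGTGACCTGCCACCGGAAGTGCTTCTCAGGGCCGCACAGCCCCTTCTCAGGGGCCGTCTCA

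Tmem176b and Tmem176a, the pair of the first window, encode related membrane proteins and gave nearly the same pattern. The signal of Tmem176b was 2093, 2072 and 2200 in haploid EpiSC-1, against 875, 901 and 881 in haploid EpiSC-2, 198, 160 and 240 in diploid EpiSC-1 and 288, 283 and 316 in diploid EpiSC-2. For Tmem176a it was 1477, 1394 and 1351 in haploid EpiSC-1, against 444, 467 and 563 in haploid EpiSC-2, 157, 124 and 121 in diploid EpiSC-1 and 267, 240 and 204 in diploid EpiSC-2. Both genes were highest in haploid EpiSC-1 with no overlap between its arrays and any others, and the line's deviation from the mean of the 4 lines was 1.88 ± 0.07 (SE, log2, n = 3) for Tmem176b and 1.88 ± 0.08 for Tmem176a. The second window pairs Ndufa4, associated with the respiratory chain, with Phf14, a protein with PHD fingers: the deviation in haploid EpiSC-1 was 0.15 ± 0.03 for Ndufa4 and 0.26 ± 0.03 for Phf14. In the third, it was 0.08 ± 0.04 for Ints13, a subunit of the Integrator complex, and 0.42 ± 0.05 for Fgfr1op2. In the fourth, it was 0.33 ± 0.08 for 2610306M01Rik and 0.82 ± 0.03 for Aak1, a kinase of endocytosis. Over all 16 pairs, both genes were above 0 in haploid EpiSC-1 in 8, the sign was shared in 11, and the median difference between the genes of a pair was 0.21 log2 units. Since 385 of the 530 genes were above 0 in this line, genes of the chromosome paired at random would often share a sign too. Whether a shared start goes with a shared pattern was not tested.

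Haploid EpiSC-1 was the line in which chromosome 6 stood apart. The deviation of a line is its mean log2 signal minus the mean of the 4 line means, so the 4 deviations of a gene sum to 0. In haploid EpiSC-1 its median over the 530 genes was 0.24, against 0.03 over all 11105 genes, a difference of 0.21 or 1.16-fold. The middle part of the genes, from the lower to the upper quartile, ran from -0.02 to 0.53, and the upper decile lay at 0.999. Set against all genes, the median was -0.08 in diploid EpiSC-1, -0.03 in diploid EpiSC-2 and -0.05 in haploid EpiSC-2. The chromosome was selected on its level in haploid EpiSC-1, so every value that involves the haploid lines is a description here. Genes called at an adjusted p are counted to describe the spread of these values over the chromosome, not as a test of it.

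The replicate arrays of a line lay close together. Relative to all genes, the median of chromosome 6 was 0.198, 0.219 and 0.192 on the haploid EpiSC-1 arrays and -0.0534, -0.0605 and -0.0551 on those of haploid EpiSC-2. It was -0.108, -0.0977 and -0.102 on the diploid EpiSC-1 arrays and -0.0404, -0.0260 and -0.0485 on those of diploid EpiSC-2. The 3 haploid EpiSC-1 arrays were the only ones above 0, and each exceeded the highest of the other 9 by far more than the spread within any line. The signals of every array are scaled to a common trimmed mean, so they show the share of chromosome 6 relative to the rest of the array, not the amount per cell. In these bulk samples, fewer cells of a type and less RNA per cell cannot be told apart.

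**Figure D1:**
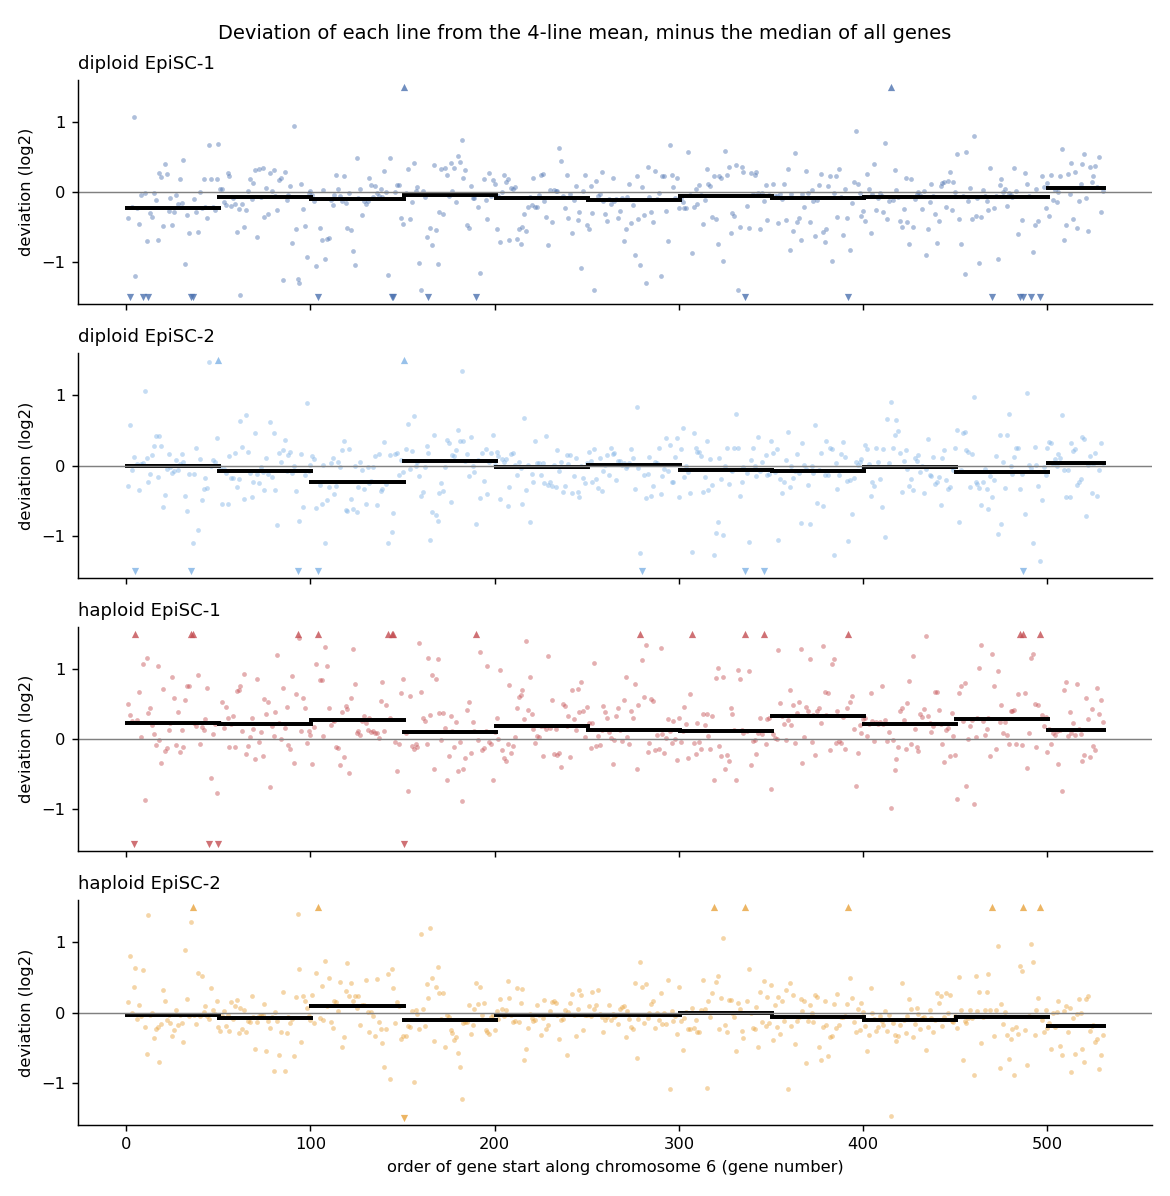
Each panel shows 1 line; points are the 530 chromosome 6 genes in order of gene start (x axis) with the line's deviation from the 4-line mean, minus the median of all genes tested (y axis, log2), bars are medians of windows of 50 genes, and triangles mark values beyond the axis. All 11 bars lie above 0 in haploid EpiSC-1, from 0.10 to 0.32, while at most 3 of 11 do in any other line.

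The elevation in haploid EpiSC-1 ran along the whole chromosome. In 11 consecutive windows of 50 genes in order of gene start (the last of 30), the median relative to all genes was 0.22 from Gm20559 to Gpr37, 0.22 from Pot1a to Ubn2, 0.27 from Fmc1 to Fam221a and 0.10 from Npy to Rmnd5a. Further along it was 0.19 from Rnf103 to Dysf, 0.13 from Exoc6b to Txnrd3 and 0.12 from Zxdc to Lhfpl4. The far part gave 0.32 from Mtmr14 to Rad52, 0.21 from Wnk1 to Mrpl51, 0.29 from Tapbpl to Recql and 0.12 from Golt1b to Resf1. Every window was above 0 on each of the 3 arrays of haploid EpiSC-1, the lowest single value being 0.0433, in the window that begins with Npy. Only 1 of 11 windows was above 0 in diploid EpiSC-1, 3 in diploid EpiSC-2 and 1 in haploid EpiSC-2.

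Windows of 25 genes gave 21 of 22 above 0 in haploid EpiSC-1. The exception ran from Mindy4 to Rmnd5a (-0.02), and the highest ran from Fmc1 to Cntnap2 (0.39). The longest unbroken stretch of genes on 1 side of the all-gene median in haploid EpiSC-1 held 24 genes above it, from Tcaf2 to Tmem176a. In the other lines the longest stretches lay below the median: 13 genes from Gng11 to C1galt1 in diploid EpiSC-1, 11 from Ccnd2 to Gabarapl1 in diploid EpiSC-2 and 13 from Nod1 to Vopp1 in haploid EpiSC-2. Adjacent genes differed by a median of 0.398 in haploid EpiSC-1, against 0.464 for genes 50 places apart, so the local scatter was larger than the shift itself.

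On no other chromosome was the median of haploid EpiSC-1 as high. Chromosome 6 ranked 1 of 20 in that line and 19 of 20 both in haploid EpiSC-2 and in diploid EpiSC-1. Chromosome 19 followed in haploid EpiSC-1 with 0.16, and chromosome 13 lay lowest with -0.38, whereas the same chromosome 13 was at 0.10 in haploid EpiSC-2. Chromosome 11 was low in both haploid lines (-0.13 and -0.16) and higher in diploid EpiSC-1 (0.21) and diploid EpiSC-2 (0.10). The other 15 autosomes lay between -0.04 and 0.06 in haploid EpiSC-1. Single windows as high as the lowest of chromosome 6 did occur elsewhere: 23 of 199 windows on other chromosomes reached it. When no level limit was set, chromosome 19 (0.14) passed chromosome 6 (0.13) in haploid EpiSC-1.

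**Figure D2:**
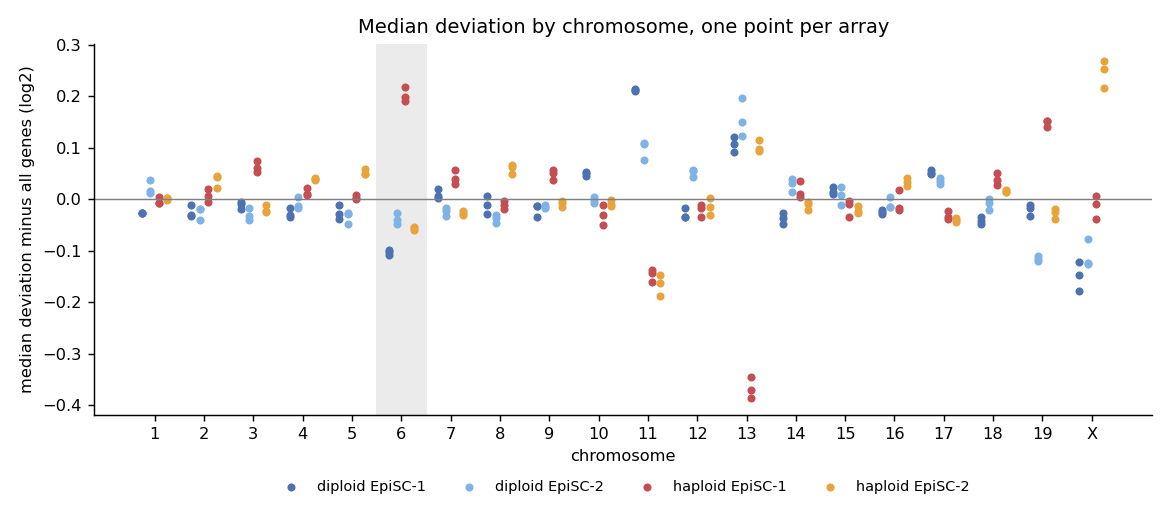
Each point is 1 array: the median deviation of the genes of a chromosome from the 4-line mean, minus the median of all genes tested (y axis, log2), for chromosomes 1 to 19 and X (x axis), coloured by line. The haploid EpiSC-1 arrays lie between 0.192 and 0.219 for chromosome 6 (shaded), and the other 9 arrays lie below 0 there.

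Gene by gene, most of the chromosome followed the shift, with wide scatter. In what follows a gene is called higher or lower when its adjusted p was under 0.05 (limma, Benjamini-Hochberg over all 11105 genes). Haploid EpiSC-1 deviated upwards in 316 of the 530 genes (59.6%, against 37.5% of all genes) and downwards in 83 (15.7%, against 32.3%). Its 3 arrays lay above all 9 others in 200 genes (37.7%, against 19.7%) and below them in 32 (6.04%, against 15.4%). The line was the highest of the 4 in 287 genes (54.2%, against 32.7% of all genes) and the lowest in 69 (13%, against 27.0%). Its arrays had higher medians over all probe sets (72.9 to 76.3) than the other arrays (63.4 to 68.4). Once arrays were centred on those medians, the median of all genes in haploid EpiSC-1 moved from 0.03 to -0.11, and 232 chromosome 6 genes were called higher and 136 lower, against 2818 and 5059 of all genes. That split (63.0% of the calls higher, against 35.8% over all genes) compares with 79.2% and 53.7% without centring.

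In the other lines more genes of the chromosome were below the 4-line mean than above it. Diploid EpiSC-1 was called higher in 121 genes (22.8%, against 34.3% of all genes) and lower in 230 (43.4%, against 32.1%). Diploid EpiSC-2 was higher in 136 (25.7%, against 30.3%) and lower in 208 (39.2%, against 34.1%), and haploid EpiSC-2 was higher in 124 (23.4%, against 29.1%) and lower in 197 (37.2%, against 29.1%). Because the 4 deviations sum to 0, a gene that is high in haploid EpiSC-1 is pushed below 0 elsewhere. For the 103 genes whose other 3 line means lay within 0.25 of each other, haploid EpiSC-1 differed from those 3 by a median of 0.16 (1.12-fold). It was above them in 68 (66.0%). Over all 1863 such genes the median was -0.03, with 46.3% above 0. For the 72 genes chosen in the same way around haploid EpiSC-2 the median was -0.13, with 13 above 0 (18.1%, against 46.4% over all genes). Around diploid EpiSC-1 it was -0.03 for 68 genes, with 31 above 0 (45.6%, against 52.9%). Around diploid EpiSC-2 the median was above 0: 0.06 for 80 genes, with 50 above 0 (62.5%, against 49.1%).

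The haploid lines differed from each other by moderate amounts over most of the chromosome. Haploid EpiSC-2 minus haploid EpiSC-1 had a median of -0.30 over the 530 genes and -0.05 over all genes. It was lower in haploid EpiSC-2 for 286 genes (54%, against 31% of all genes) and higher for 57 (10.8%, against 25.7%), and with centred arrays these counts were 214 and 95, against 2207 (19.9%) and 4184 (37.7%) of all genes. In haploid EpiSC-1, 238 genes (44.9%, against 36.7% of all genes) were higher by up to 0.5 log2 units, 122 (23.0%, against 13%) by 0.5 to 1 and 49 (9.25%, against 4.75%) by 1 or more. On the other side, 101 (19.1%, against 35.7% of all genes) were lower by up to 0.5, 15 (2.83%, against 7.65%) by 0.5 to 1 and 5 (0.943%, against 2.17%) by 1 or more. Most of the imbalance was thus made of genes that differed by less than 1 log2 unit.

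**Figure D3:**
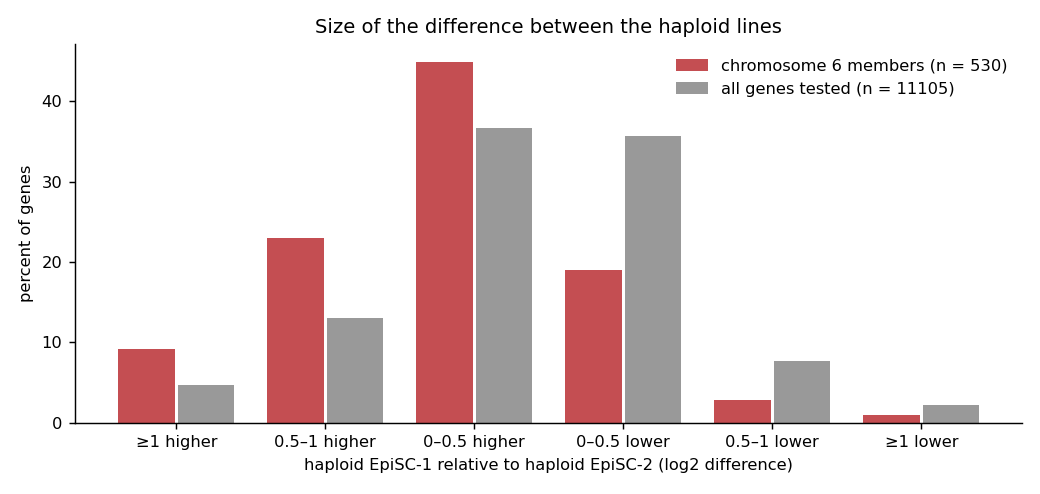
Bars give the percent of genes (y axis) in each class of difference between haploid EpiSC-1 and haploid EpiSC-2 (x axis, log2), for the 530 chromosome 6 genes and all 11105 genes tested. Classes with haploid EpiSC-1 higher hold 9.25%, 23.0% and 44.9% of the chromosome 6 genes, against 4.75%, 13% and 36.7% of all genes.

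The shift was present at low and at high signal. In the lower, middle and upper part of all genes by mean signal, the median deviation of chromosome 6 genes in haploid EpiSC-1 was 0.33, 0.28 and 0.11, and that of all genes was 0.17, 0.05 and -0.07, so the chromosome lay 0.17, 0.22 and 0.18 above. CG dinucleotides, which read the same on both strands, were counted in the promoter windows of 461 of the 530 genes; 94.6% of all RefSeq windows held at least 1. From the genes with few CG to those with many, the medians were 0.30, 0.24 and 0.18, against 0.04, 0.004 and 0.03 over all genes of the same classes. A further probe set was available for 265 genes, and in 180 of them every such probe set was above 0 in haploid EpiSC-1, while in 59 every one was below. Of the 152 genes called higher that had another probe set, the others were all above 0 in 136 and all below in 10. These counts have no matching share over all genes, of which 53.1% were above 0 in this line with the brightest probe set. The 152 were also called on the same arrays. The counts thus describe the agreement of probe sets, not a trait of the chromosome.

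Which genes of the chromosome reached the level limit differed by family. Of all its 992 genes with a probe set, 542 reached it. The limit is a rank among probe sets, not a test of whether a gene was expressed. None of the 18 killer cell lectin-like receptors, 19 C-type lectins, 19 vomeronasal receptors, 14 immunoglobulin kappa segments and 6 organic anion transporters of chromosome 6 on the array reached the level limit. Of 8 Gimap GTPases, which belong to lymphocytes, only Gimap9 did. By contrast, 16 of 18 zinc finger genes named Zfp, 6 of 6 mitochondrial ribosomal protein genes and 4 of 4 subunit genes of respiratory complex I were among the 530.

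**Figure D4:**
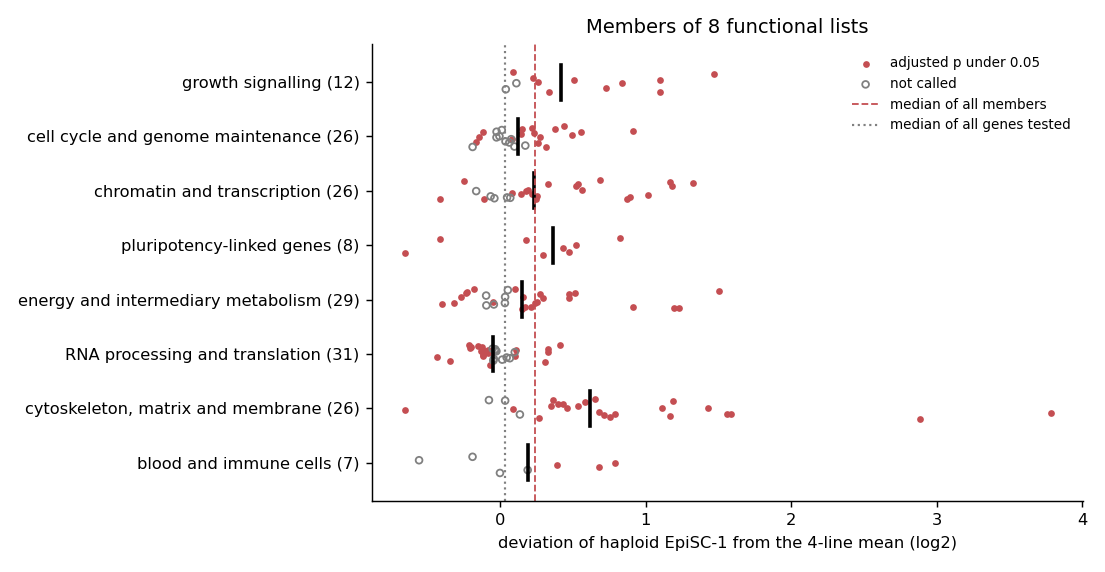
Each point is a chromosome 6 gene of 1 of 8 lists (rows, number of members in brackets) at its deviation in haploid EpiSC-1 from the 4-line mean (x axis, log2); filled points passed an adjusted p of 0.05, and short bars are list medians. The cytoskeleton, matrix and membrane list has its median at 0.62 and the RNA processing and translation list at -0.05, with the median of all 530 genes (dashed) at 0.24.

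Growth signalling genes lay high in haploid EpiSC-1: 10 of 12 (83.3%, against 37.5% of all genes) were called higher and none lower (against 32.3%), with a median deviation of 0.42. Creb3l2, a membrane-bound transcription factor of the secretory pathway, had signals of 1025, 969 and 1023 in haploid EpiSC-1, against 595, 527 and 555 in haploid EpiSC-2, 143, 164 and 141 in diploid EpiSC-1 and 207, 219 and 195 in diploid EpiSC-2. The haploid EpiSC-1 arrays were the highest without overlap, and the deviation was 1.47 ± 0.06. Hipk2, a kinase linked to p53 and TGF-beta signalling, deviated by 1.10 ± 0.04 and Rassf8, a RAS-association protein, by 0.73 ± 0.05. Braf, a kinase of the MAP kinase pathway, gave 1628, 1560 and 1565 in haploid EpiSC-1, against 1211, 1261 and 1229 in haploid EpiSC-2, 1248, 1283 and 1264 in diploid EpiSC-1 and 1364, 1342 and 1418 in diploid EpiSC-2. That deviation was small and free of overlap (0.22 ± 0.03), and the 8 other probe sets of Braf ranged from -0.10 to 0.59. Dusp16, a phosphatase of MAP kinases, was instead highest in diploid EpiSC-2 (1997, 1891 and 2075), with 1581, 1602 and 1551 in haploid EpiSC-1.

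Of 26 cell cycle and genome maintenance genes, 13 (50%, against 37.5% of all genes) were called higher in haploid EpiSC-1 and 3 lower (11.5%, against 32.3%). The median was 0.12, which became -0.02 with centred arrays, where 7 were higher and 7 lower and 25.4% of all genes were higher and 45.6% lower. Cdkn1b, which encodes the p27 inhibitor of cyclin-dependent kinases, had signals of 1610, 1635 and 1775 in haploid EpiSC-1 and of 1079, 1012 and 1073 in haploid EpiSC-2. It gave 1167, 1158 and 1232 in diploid EpiSC-1 and 1152, 1099 and 1109 in diploid EpiSC-2. The other 3 lines were alike and haploid EpiSC-1 stood above them, with a deviation of 0.44 ± 0.03. Mkrn2, a ubiquitin ligase, had the same form: 1533, 1515 and 1579 in haploid EpiSC-1, and between 1037 and 1146 on all 9 other arrays. Cdca3, a cell division protein, deviated by 0.22 ± 0.03. Ccnd2, a D-type cyclin, went against the chromosome, being higher in haploid EpiSC-2 (3703, 3339 and 3551) than in haploid EpiSC-1 (2540, 2656 and 2497). Mcm2, a replication helicase subunit, deviated by -0.03 ± 0.04 and was not called, and Foxm1, a transcription factor of mitotic genes, by 0.17 ± 0.10, also not called.

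Of 26 chromatin and transcription genes, 18 (69.2%, against 37.5% of all genes) were called higher in haploid EpiSC-1 and 3 lower (11.5%, against 32.3%), with a median of 0.23. Foxp1, a forkhead transcription factor, had signals of 3050, 3017 and 3137 in haploid EpiSC-1, against 1674, 1754 and 1715 in haploid EpiSC-2, 1225, 1221 and 1089 in diploid EpiSC-1 and 1276, 1248 and 1130 in diploid EpiSC-2. No array of another line reached those of haploid EpiSC-1, and the deviation was 0.89 ± 0.04. Kdm7a, a histone demethylase, gave 1830, 1745 and 1828 in haploid EpiSC-1, against 994, 947 and 868 in haploid EpiSC-2, but with the mean of all its probe sets the difference between the haploid lines turned to 0.40 in favour of haploid EpiSC-2 and was not called. Setd5, related to histone methyltransferases, deviated by 0.33 ± 0.03 and Chd4, the helicase of the NuRD complex, by 0.19 ± 0.07. Ezh2, the methyltransferase of Polycomb repressive complex 2, lay at 0.08 ± 0.03, a value that turned to -0.06 with centred arrays. Trim24, a coregulator of nuclear receptors, was distinguished by haploid EpiSC-2 instead, where its signals (1808, 1580 and 1625) lay below the other 9 arrays (2324 to 2592).

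The 8 pluripotency-linked genes had a median of 0.36, with 6 called higher (75%, against 37.5% of all genes) and 2 lower (25%, against 32.3%). Slc2a3, a glucose transporter, gave 20922, 19462 and 19742 in haploid EpiSC-1, against 15430, 14559 and 15441 in haploid EpiSC-2, 14223, 13377 and 14214 in diploid EpiSC-1 and 17105, 15834 and 17551 in diploid EpiSC-2. Cd9, a tetraspanin of the cell surface, was also highest in haploid EpiSC-1 (4208, 4300 and 4341) without overlap, and Gdf3, a TGF-beta family ligand, was similar in both haploid lines (220, 262 and 250 against 252, 217 and 234). Podxl, a sialomucin of the surface of pluripotent cells, was the gene of this list farthest below 0: it gave 974, 933 and 927 in haploid EpiSC-1, against 1265, 1275 and 1277 in haploid EpiSC-2 and 1799 to 2374 in the diploid lines. Dppa3, known from the naive state and the germ line, lay below the level limit (line means of 38.1 to 70.7).

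The 11 markers of epiblast stem cells checked here, on any chromosome, were at or above the level limit in every line. Fgf5 (83.3) and Otx2 (73.8) lay near it in haploid EpiSC-1 and between 2130 and 3961 in the other lines, and the summed signal of the 11 was 38225 to 38920 on the haploid EpiSC-1 arrays, 52418 to 54557 in haploid EpiSC-2, 56317 to 57715 in diploid EpiSC-2 and 71154 to 75384 in diploid EpiSC-1. The sum was thus lowest in haploid EpiSC-1, but single markers differed in order. Sox2 was highest there (a line mean of 4537, against 1004 to 3382), Lefty1 was higher in both haploid lines than in the diploid ones, and Lin28a and Tdgf1 were each lowest in another line. The summed signal of 4 markers of trophoblast was highest in haploid EpiSC-1. It was 1436 to 1649 there, 679 to 721 in haploid EpiSC-2, 225 to 251 in diploid EpiSC-1 and 174 to 242 in diploid EpiSC-2. Single markers were divided, and none of the 4 was at 0. Cdx2 (a line mean of 987, against 357 in haploid EpiSC-2) and Gata3 (468, against 116) were highest in haploid EpiSC-1. Both lay below the level limit in the diploid lines. Krt7 was instead lowest in haploid EpiSC-1 (64.4, against 141 to 214 elsewhere). Elf5 lay below the level limit in every line and was lower in both haploid lines than in the diploid ones. The sum of 4 markers of primitive endoderm was instead highest in haploid EpiSC-2 (2315 to 2656, against 861 to 940 in haploid EpiSC-1 and 691 to 1208 in the diploid lines). The part of these cell types in the values of the chromosome was not tested.

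Energy and intermediary metabolism was mixed: of 29 genes 16 (55.2%, against 37.5% of all genes) were called higher in haploid EpiSC-1 and 7 lower (24.1%, against 32.3%). The median of 0.15 became 0.01 with centred arrays, where 10 were higher and 13 lower and 25.4% of all genes were higher and 45.6% lower. Akr1b8, an aldo-keto reductase, had signals of 1954, 2096 and 1868 in haploid EpiSC-1, against 822, 712 and 797 in haploid EpiSC-2, 698, 741 and 703 in diploid EpiSC-1 and 438, 474 and 472 in diploid EpiSC-2. Eno2, a glycolytic enolase best known from neurons, gave 352, 393 and 363 in haploid EpiSC-1 and at most 148 elsewhere. Both were free of overlap, with deviations of 1.23 ± 0.04 for Akr1b8 and 1.5 ± 0.12 for Eno2. Hk2, a hexokinase, and Atp6v1f, a subunit of the vacuolar proton pump, were higher in haploid EpiSC-1 than in haploid EpiSC-2 but highest in diploid EpiSC-2 (6974, 6445 and 6979 for Hk2, against 5830, 5613 and 5881 in haploid EpiSC-1).

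RNA processing and translation was the list that did not share the upward shift. Of 31 genes, 6 (19.4%, against 37.5% of all genes) were called higher in haploid EpiSC-1 and 15 lower (48.4%, against 32.3%), with a median of -0.05. After quantile normalization these counts were 10 and 8 and the median 0.003, while 32.9% of all genes were higher and 36.6% lower. In the upper part by mean signal, the median in this line was -0.07 for all genes and 0.11 for those of chromosome 6. The lists were not compared with genes of like signal. Igf2bp3, an RNA-binding protein that stabilises transcripts, had signals of 1845, 1831 and 2019 in haploid EpiSC-1 and between 2665 and 3055 on the other 9 arrays. The deviation was -0.43 ± 0.03, without overlap. Other members went up with the chromosome: Tprkb, part of the complex that modifies transfer RNA, by 0.41 ± 0.03, Dusp11, an RNA phosphatase, by 0.33 ± 0.03, and Mrps33, a mitochondrial ribosomal protein, by 0.30 ± 0.04.

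Cytoskeleton, matrix and membrane genes had the highest median of the 8 lists: 22 of 26 (84.6%, against 37.5% of all genes) were called higher in haploid EpiSC-1 and 1 lower (3.85%, against 32.3%), with that median at 0.62. Emp1, an epithelial membrane protein, had signals of 3222, 2982 and 3081 in haploid EpiSC-1, against 2241, 2513 and 2517 in haploid EpiSC-2, 31.2, 3.82 and 3.20 in diploid EpiSC-1 and 46.9, 52.7 and 42.4 in diploid EpiSC-2. It was high in both haploid lines and near the background of the array in the diploid ones. Cav2, a caveolin of membrane pits, gave 1123, 1099 and 953 in haploid EpiSC-1, against 417, 298 and 345 in haploid EpiSC-2 and between 24.5 and 58.4 in the diploid lines. Its neighbour Cav1 was high in both haploid lines too, but lower in haploid EpiSC-1 (1991, 2170 and 2005) than in haploid EpiSC-2 (2581, 2711 and 2635).

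Within the same list, Cald1, which binds actin and calmodulin, and Calu, a calcium-binding protein of the endoplasmic reticulum, were expressed in all lines. Cald1 gave 14978, 14783 and 15431 in haploid EpiSC-1, against 10770, 11175 and 10780 in haploid EpiSC-2, 10404, 9776 and 10621 in diploid EpiSC-2 and 3698, 3839 and 3814 in diploid EpiSC-1. Capg, an actin-capping protein, was 1549, 1668 and 1597 in haploid EpiSC-1 and 363 to 557 on the other 9 arrays, so haploid EpiSC-2 lay with the diploid lines for this gene. Anxa4, an annexin, deviated by 0.43 ± 0.03 and Calu by 0.71 ± 0.02. Fibroblast markers were high in both haploid lines. All 12 were at or above the level limit there, against 4 in diploid EpiSC-1 and 8 in diploid EpiSC-2, and none was at 0. Their summed signal was 27753 to 28442 in haploid EpiSC-1 and 30139 to 30716 in haploid EpiSC-2. It was 1267 to 1357 in diploid EpiSC-1 and 2194 to 2225 in diploid EpiSC-2. The sum was thus higher in haploid EpiSC-2, whereas the list had a median of -0.46 for haploid EpiSC-2 minus haploid EpiSC-1. Acta2 was higher in haploid EpiSC-2 (12963, against 7098), but Col3a1 (7292, against 8142) and Col1a2 (5043, against 6316) were lower. Thy1 was highest in diploid EpiSC-1 (202, against 108 to 131 elsewhere). The part of fibroblast markers in the values of the list and of the chromosome was not tested.

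Of 21 blood and immune genes with a probe set, 7 were among the 530, and 3 of these (42.9%, against 37.5% of all genes) were called higher in haploid EpiSC-1 and none lower (against 32.3%), with a median of 0.19. Tnfrsf1a, the broadly expressed receptor of tumour necrosis factor, gave 864, 857 and 822 in haploid EpiSC-1, against 451, 512 and 547 in haploid EpiSC-2, 334, 302 and 255 in diploid EpiSC-1 and 442, 470 and 477 in diploid EpiSC-2. Ptpn6, a phosphatase of blood cells, deviated by 0.39 ± 0.07. None of the 3 blood markers checked reached the level limit in any line.

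**Figure D5:**
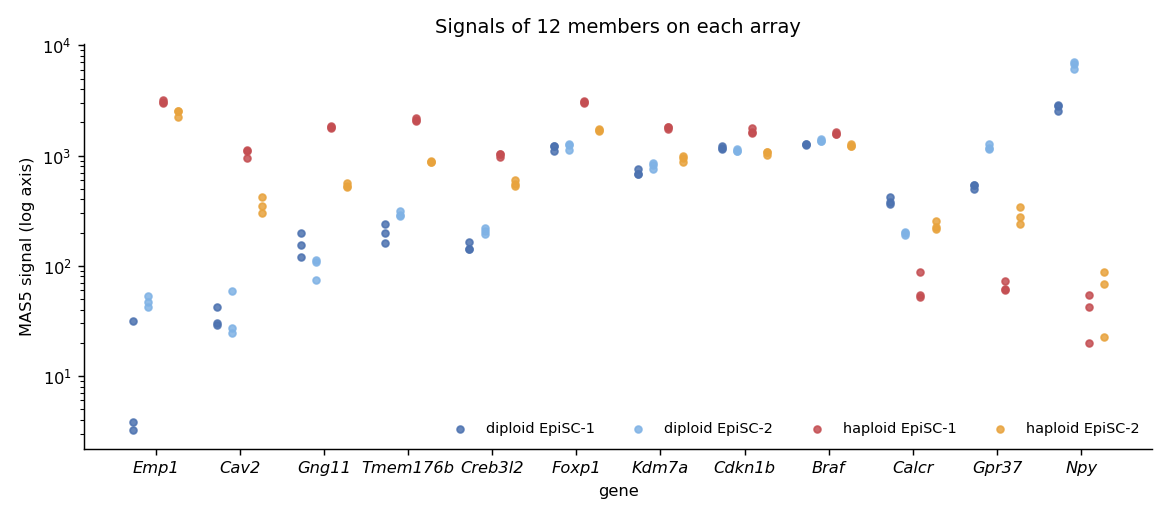
MAS5 signals (y axis, log scale) of 12 chromosome 6 genes (x axis), 1 point per array and coloured by line. Foxp1, Cdkn1b and Braf are highest in haploid EpiSC-1, and Foxp1 is also higher in haploid EpiSC-2 than in the diploid lines. Kdm7a is higher in haploid EpiSC-1 than in haploid EpiSC-2. Emp1 lies at 2241 or more in both haploid lines and at 52.7 or less in the diploid ones. Gpr37 and Calcr are lowest in haploid EpiSC-1.

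Among genes whose haploid EpiSC-1 arrays lay above all others, Emp1, Mgst1, Cav2, Gxylt2 and Gng11 had the largest upward deviations. The diploid signals of Emp1, Mgst1 and Cav2 lay below the level limit on all 6 arrays and those of Gxylt2 on 4, so a deviation is given for Gng11 only (2.39 ± 0.10). Gng11, a gamma subunit of G proteins, gave 1847, 1830 and 1793 in haploid EpiSC-1, against 519, 534 and 560 in haploid EpiSC-2, 153, 120 and 196 in diploid EpiSC-1 and 74.5, 108 and 113 in diploid EpiSC-2. Mgst1, a microsomal glutathione transferase, gave 977, 1038 and 964 in haploid EpiSC-1, against 598, 647 and 638 in haploid EpiSC-2 and between 2.29 and 50.8 in the diploid lines. These genes were high in both haploid lines and had their maximum in haploid EpiSC-1.

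A smaller set ran the other way. Gpr37, an orphan G-protein-coupled receptor, gave 71.9, 60.3 and 61.5 in haploid EpiSC-1, against 340, 238 and 279 in haploid EpiSC-2, 543, 542 and 500 in diploid EpiSC-1 and 1145, 1275 and 1167 in diploid EpiSC-2. Calcr, the calcitonin receptor, gave 86.8, 51.8 and 54.3 in haploid EpiSC-1, against 217, 256 and 227 in haploid EpiSC-2, 417, 362 and 377 in diploid EpiSC-1 and 198, 201 and 188 in diploid EpiSC-2. Both were near the level limit in haploid EpiSC-1 without overlap, with deviations of -2.35 ± 0.08 for Gpr37 and -1.54 ± 0.11 for Calcr. Arrays below that limit (60.3 and 61.5 for Gpr37, 51.8 and 54.3 for Calcr) enter these values, so the sizes are uncertain. Aass, an enzyme of lysine breakdown (-2.03 ± 0.20, with haploid EpiSC-1 arrays of 63.3, 16.6 and 40.4), Asb4 (-0.83 ± 0.12) and Tapbpl, which edits peptides on MHC class I (-0.82 ± 0.09), completed the 5 lowest among genes whose haploid EpiSC-1 arrays lay below all others; Npy, whose arrays overlapped those of haploid EpiSC-2, is described with the ploidy comparison. Gpr37, Calcr, Aass and Asb4 lie among the first 50 genes of the chromosome, a window whose median was nevertheless 0.22.

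Between the haploid lines, the genes most in favour of haploid EpiSC-2 were Trh, which encodes thyrotropin-releasing hormone, Gpr37 (2.13 ± 0.12), Aass (1.94 ± 0.33), Calcr (1.90 ± 0.18) and Dync1i1 (0.99 ± 0.18), a dynein chain. Trh gave 235, 220 and 234 in haploid EpiSC-2 and 46.3, 53.3 and 56.0 in haploid EpiSC-1, the latter all below the level limit, so no size is given for it. The sizes for Gpr37, Aass and Calcr rest in part on haploid EpiSC-1 arrays below that limit and are uncertain. The genes most in favour of haploid EpiSC-1 were Eno2 (-2.04 ± 0.20), Fbln2 (-1.96 ± 0.19), Capg (-1.94 ± 0.13), 9330102E08Rik (-1.81 ± 0.23) and Pdk4 (-1.78 ± 0.37), which encodes a kinase that restrains pyruvate dehydrogenase. Fbln2, a matrix protein, gave 647, 622 and 726 in haploid EpiSC-1, and haploid EpiSC-2 was at 180, 160 and 173. Fgd5, an exchange factor of Cdc42, differed through haploid EpiSC-2: it gave 144, 127 and 139 there, 361, 381 and 389 in haploid EpiSC-1, 362, 363 and 371 in diploid EpiSC-1 and 387, 307 and 402 in diploid EpiSC-2. It was thus at 1 level in 3 lines and low in the other.

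The diploid lines, whose difference played no part in the choice of the chromosome, were closer to each other. Diploid EpiSC-2 minus diploid EpiSC-1 had a median of 0.05 over the 530 genes and -0.01 over all genes. It was higher for 167 genes (31.5%, against 26.4% of all genes) and lower for 115 (21.7%, against 29.4%). The largest fitted increases were those of Emp1 and Mgst1, but both genes lay below the level limit on all 6 diploid arrays, so no size is given. Samd9l, an interferon-responsive gene, rose from 100, 104 and 82.1 in diploid EpiSC-1 to 457, 437 and 505 in diploid EpiSC-2 (2.29 ± 0.11, adjusted p = 2.04e-10 by limma). Flnc, a filamin that crosslinks actin, rose from 182, 145 and 195 to 978, 617 and 629 (2.07 ± 0.27, adjusted p = 1.39e-05 by limma). Neither Samd9l nor Flnc overlapped between the diploid lines.

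Lower in diploid EpiSC-2 were Srgap3, Tuba8, Prokr1, Trh and Cxcl12. Cxcl12, a chemokine, fell from 166, 131 and 162 in diploid EpiSC-1 to 63.1, 62.2 and 61.8 in diploid EpiSC-2 (-1.29 ± 0.14, adjusted p = 2.9e-06 by limma). The diploid EpiSC-2 arrays at 62.2 and 61.8 lay below the level limit, so that size is uncertain. Prokr1, a prokineticin receptor, gave 63.1, 84.8 and 58.2 in diploid EpiSC-1 and 22.5, 13.2 and 31.6 in diploid EpiSC-2, where all 3 arrays lay below the level limit. Of the 26 cell cycle and genome maintenance genes, 4 were higher in diploid EpiSC-2, against 26.4% of all genes. The 7 that were lower make up a share close to the 29.4% of all genes. Mcm2 fell from 4713, 4461 and 4940 to 3380, 3248 and 3277 (-0.51 ± 0.06, adjusted p = 6.99e-06 by limma). Of the 29 metabolism genes, 15 were higher (against 26.4% of all genes) and 6 lower (against 29.4%). Hk2 rose by 0.75 ± 0.04 (adjusted p = 1.78e-09 by limma). Of the cytoskeleton, matrix and membrane list 15 of 26 were higher (against 26.4% of all genes) and 2 lower (against 29.4%). Cald1 was among the higher (1.44 ± 0.04). Cd9, of the pluripotency-linked list, rose by 1.61 ± 0.06.

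Haploid minus diploid, with the line as a random block, had a median of 0.15 over the 530 genes and 0.003 over all genes. The haploid lines did not share this shift. Relative to all genes, the median deviation was 0.21 in haploid EpiSC-1, the line on which the chromosome was selected. It was -0.05 in haploid EpiSC-2, between diploid EpiSC-1 (-0.08) and diploid EpiSC-2 (-0.03). Higher were 78 genes (14.7%, against 9.69% of all genes) and lower 25 (4.72%, against 7.54%). With line means as the units, 2 against 2, these counts were 16 (3.02%, against 2.02% of all genes) and 5 (0.943%, against 0.91%). By the fitted difference, Emp1, Parp12, Mgst1, Gxylt2 and Cav2 came first. All but Gxylt2 lay below the level limit on all 6 diploid arrays, as did 6 of the 530 genes in all, and these had reached the limit through the haploid arrays alone and so had to differ. With diploid arrays below the limit set to it, the mean haploid signal was at least 43.7-fold higher for Emp1, 14.9-fold for Gxylt2, 12.6-fold for Mgst1, 9.72-fold for Cav2 and 8.16-fold for Parp12. The call for Cav2 was lost with the mean of all its probe sets (a log2 difference of 1.72, adjusted p = 0.0771 by limma). Parp12, of the ADP-ribosyltransferase family, gave 418, 439 and 445 in haploid EpiSC-1, against 585, 618 and 601 in haploid EpiSC-2 and at most 16.9 in the diploid lines.

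At the other end, Npy, which encodes neuropeptide Y, gave 2903, 2534 and 2829 in diploid EpiSC-1 and 6149, 6761 and 7008 in diploid EpiSC-2, but 20, 42.6 and 54.7 in haploid EpiSC-1, and haploid EpiSC-2 was at 87.0, 68.8 and 22.5. The haploid lines overlapped each other, with 4 of their 6 arrays below the level limit. With those arrays set to the limit, the mean diploid signal was at least 63.6-fold higher. Gpr37 (-2.56 ± 0.52), A2m, whose 6 haploid arrays all lay below the level limit, Herc6 (-2.08 ± 0.31) and Tigar (-1.78 ± 0.28) followed. With line means as the units Gpr37 was no longer called (adjusted p = 0.133 by limma), and its size rests in part on haploid EpiSC-1 arrays below the level limit. Herc6, an interferon-induced ligase, gave 1153, 1192 and 985 in diploid EpiSC-1, 1531, 1705 and 1688 in diploid EpiSC-2, 422, 347 and 328 in haploid EpiSC-1, with haploid EpiSC-2 at 239, 320 and 283. Tigar, a phosphatase that restrains glycolysis, was low in both haploid lines with its brightest probe set only: the others deviated by -0.25 to 0.07 in haploid EpiSC-1, and the call was lost with the mean of all its probe sets (-0.63). Npy and Herc6 were thus low in both haploid lines.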

How the data were processed

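RNA of 12 samples was hybridised to Affymetrix mouse 430 2.0 arrays, 1 per sample. The authors deposited linear signal intensities from MAS5, as the submitters' processing notes name it, with no version. When 2% of probe sets were trimmed at each end, every array had a mean of 500.0. Of 45101 probe sets, 64 controls were dropped, 34945 had 1 symbol, 932 several and 9160 none. Arrays of a line correlated at 0.989 to 0.992. Precision is limited by the 3 arrays per line.

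Log2 signals without a pseudocount were fitted with limma 3.58.1 (R 4.3.3) as 4 group means with an intensity trend, and adjusted by Benjamini-Hochberg over 11105 genes. Haploid minus diploid took the line as a random block (statmod 1.5.0, correlation 0.806). Signals per line are geometric means. Medians over genes are descriptions. Genes were placed by Entrez ID, and promoter windows come from RefSeq (GRCm38.p6). The code was tested on simulated data. Named genes were the extremes of each comparison whose arrays did not overlap, up to 4 genes per list with the lowest p between the haploid lines, window, run and promoter-pair genes, and a few fixed genes. The chromosome, the lists and the tests were chosen with earlier results of these data known. Scaling, pseudocount, level limit, probe set choice, membership, blocks, trend and single arrays were varied; a fit without the cytoskeleton list was added after seeing the data.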

Additional observations from a re-analysis of the deposited data

How the results depend on the processing

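The median of chromosome 6 in haploid EpiSC-1 relative to all genes (0.21) was 0.192 after quantile normalization, 0.128 with no level limit, 0.190 with a limit at the 75th percentile, 0.192 with the mean of all probe sets and 0.192 without the cytoskeleton list, and 0.197 to 0.220 when single arrays were left out. In the same order it was -0.0573, -0.0450, -0.0679, -0.0571 and -0.0572 in haploid EpiSC-2 (-0.0578 to -0.0468 without single arrays). Diploid EpiSC-1 gave -0.0555 with no limit, -0.0779 at the 75th percentile, -0.0910 with all genes of the chromosome, -0.0668 without the cytoskeleton list and -0.0947 to -0.0793 without single arrays. Diploid EpiSC-2 gave -0.0408 after quantile normalization, -0.00096 with no limit, -0.0481 with the mean of probe sets and -0.0538 to -0.0239 without single arrays, the lowest without its replicate 2. Haploid EpiSC-2 minus haploid EpiSC-1 was -0.180 with no limit and -0.240 with the mean of probe sets, and haploid minus diploid was 0.0879 with no limit, 0.111 at the 75th percentile, 0.129 with the mean of probe sets and 0.168 with all genes of the chromosome.

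With no limit, 973 genes of the chromosome entered, all 20 windows were above 0, its rank in haploid EpiSC-1 was 2, and 124 genes were higher and 39 lower in haploid cells. At the 75th percentile 322 genes remained, all 7 windows were above 0, and 38 genes were higher and 13 lower in haploid cells. Fewer genes were tested and fewer were called. Between the diploid lines 72 were lower. Against the 4-line mean, 144 were lower in diploid EpiSC-1, 121 lower in diploid EpiSC-2, 195 higher in haploid EpiSC-1 and 79 higher in haploid EpiSC-2. In haploid EpiSC-1, 5 growth signalling genes and 1 immune gene were higher. Windows of 25 gave 21 above 0. Centred arrays gave 95 higher in haploid EpiSC-2 against haploid EpiSC-1 (17.9%, against 37.7% of all genes) and 136 lower in haploid EpiSC-1 (25.7%, against 45.6%). They also gave 7 cell cycle and 10 metabolism genes higher in haploid EpiSC-1, against 25.4% of all genes. Quantile normalization gave 10 RNA processing genes higher in haploid EpiSC-1, against 32.9% of all genes. The mean of all probe sets gave 35 higher in haploid EpiSC-2 against haploid EpiSC-1, 106 higher in diploid EpiSC-2 than in diploid EpiSC-1, 85 higher in diploid EpiSC-2 against the 4-line mean and 10 chromatin genes. Line means as units gave 16 higher and 5 lower in haploid cells, against 2.02% and 0.91% of all genes. The genes tested numbered 18193 with no limit, 6916 at the 75th percentile and 10061 with the mean of all probe sets. Shares over all genes are not given for these 3 settings, so their counts describe the processing, not the chromosome. The cause of these moves was not tested.

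Among genes named, Kdm7a turned to 0.40 between the haploid lines with the mean of all probe sets, and with centred arrays Rmnd5a (-0.0043), Mtmr14 (-0.043) and Ezh2 (-0.060) turned below 0 in haploid EpiSC-1; of 2876 values recomputed for named genes, 2804 kept direction and call. Any pairing of arrays by replicate number was weak. Correlations ran from -0.047 to 0.077 for the same number (median 0.007) and from -0.061 to 0.031 for different numbers (median -0.005). Of the 12 arrays, 6 correlated best with an array of their own number. With the replicate block, 57 genes were higher and 282 lower in haploid EpiSC-2 against haploid EpiSC-1, and 67 higher and 22 lower in haploid cells. Shares over all genes are not given for that fit, so its counts describe the processing only.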
